A study of Mus musculus with 7 samples.

Results

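Transcripts of 45 cell cycle and DNA replication genes were examined in whole soleus, a largely slow-twitch hindlimb muscle, of dystrophic mice. The genes were listed by symbol, and all 45 were found among the 29869 genes counted. They were kept in 3 classes: 14 that act in S phase, 6 that act in G1 or at the start of S phase, and 25 mitotic genes. The 7 mice were 60 days old and all carried mdx, a dystrophin mutation that leaves muscle fibres fragile. By their titles 4 were mdx (animals 358, 361, 373 and 375, replicates 1 to 4) and 3 were mdx/Runx1f/f (animals 359, 363 and 374, replicates 1 to 3), with floxed alleles of the transcription factor gene Runx1. The labels name no Cre driver, no sex and no mdx control with the floxed alleles intact.

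The labels conflict on the groups. The description field ties most animal numbers to another sample, and the series' design text gives 3 muscles to mdx and 4 to the floxed genotype. Runx1 itself stood at 274, 273, 235 and 201 normalised read counts in mdx replicates 1 to 4 and at 919, 925 and 596 in mdx/Runx1f/f replicates 1 to 3, the reverse of a loss (log2 fold change 1.74, edgeR adjusted p = 0.00795). Gene-level counts also cover exons outside a deleted part, so this does not check the floxed allele. Groups are therefore called by their labels, and each direction rests on the titles. The libraries held 16218306 to 20847902 counts, of which the 45 genes took 2833 to 5442 in the libraries labelled mdx and 5029 to 15512 in the others. All 10 markers of soleus fibres, such as the slow myosin gene Myh7, were detected.

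A cell that divides first makes D-type cyclins, which with their kinases inactivate the retinoblastoma protein and free E2F factors. E2F factors switch on the genes that copy DNA: the Mcm helicase, its loaders, the clamp Pcna and the enzymes that supply nucleotides. Later the MuvB complex with B-Myb and Foxm1 switches on the mitotic genes, which build the spindle and part the chromosomes. In dystrophic muscle fibres are lost and rebuilt again and again, so myoblasts, macrophages and stromal cells can all divide, while the nuclei inside fibres do not. Runx1 is known for sustaining the growth of myoblasts during repair. In whole muscle, more dividing cells and more of a transcript per cell cannot be told apart.

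Whether any of the 45 genes was called between the genotypes depended on the tool. By edgeR's quasi-likelihood test 0 were higher and 0 lower at an adjusted p below 0.05, where 5.1% of the 14033 genes tested were called higher and 1.85% lower. Unadjusted, 17 of the 45 had a p below 0.05 toward higher (1 of S phase, 4 of G1, 12 of mitosis) and 0 toward lower, against 17.1% and 12.4% of all genes. DESeq2 called 6 higher and 0 lower (10.7% and 6.33% of its genes), and limma-voom called 0 in either direction (5.24% and 2.05%). By the authors' deposited table, 7 members were higher and 0 lower at an adjusted p below 0.05 (11.2% and 7.85% of its genes). Still, 44 of the 45 fitted log2 fold changes were above 0, as were 49.8% of all genes, and their median was 1.08 where that of all genes was -0.0016. The class medians of the log2 fold change were 0.57 in S phase, 0.83 in G1 and 1.41 in mitosis.

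With other settings of the edgeR fit the members' count was as follows. It was 0 higher and 0 lower with RLE factors (5.04% and 1.88% of all genes), library totals alone (5.01% and 0.934%), no filter (3.43% and 1.22%) and a mean of at least 1 CPM (5.18% and 1.93%). Ccnd1 alone was called higher, and no member lower, without mdx replicate 4 (2.08% and 0.675%) and with title numbers as a replicate block (1.71% and 0.57%). No member was called without mdx replicate 1 (4.6% and 1.16%), 2 (2.36% and 0.558%) or 3 (1.57% and 0.316%). The same held without mdx/Runx1f/f replicate 1 (3.52% and 1.22%) or 3 (3.2% and 1.47%), and with animals grouped by the description field (0.0356% and 0.0214%).

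In the S-phase and mitotic classes a single library held most of the difference between the groups. Of the 45 genes 43 were highest in mdx/Runx1f/f replicate 2 (animal 363), which was the highest library for 21.9% of all genes. In the 25 mitotic genes this library stood a median of 3.62-fold above the mean of the other 2 libraries of its group (range 2.40 to 7.63). In the S-phase genes it stood 1.96-fold above them (1.53 to 2.93) and in the G1 genes 1.40-fold (0.763 to 1.78). Without it the class medians of the log2 fold change were 0.18 in S phase, 0.68 in G1 and 0.45 in mitosis, and 0 of 45 genes were called (1.22% of all genes were called higher and 0.12% lower). Among the libraries labelled mdx, replicate 1 (animal 358) was highest in 37 of the 45 genes and in 26.4% of all genes. With both of these libraries left out, a setting chosen after the data were seen, the medians were 0.34, 0.77 and 0.93, and none of the 44 members tested was called (0.752% higher and 0.0213% lower of all genes).

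**Figure D1:**
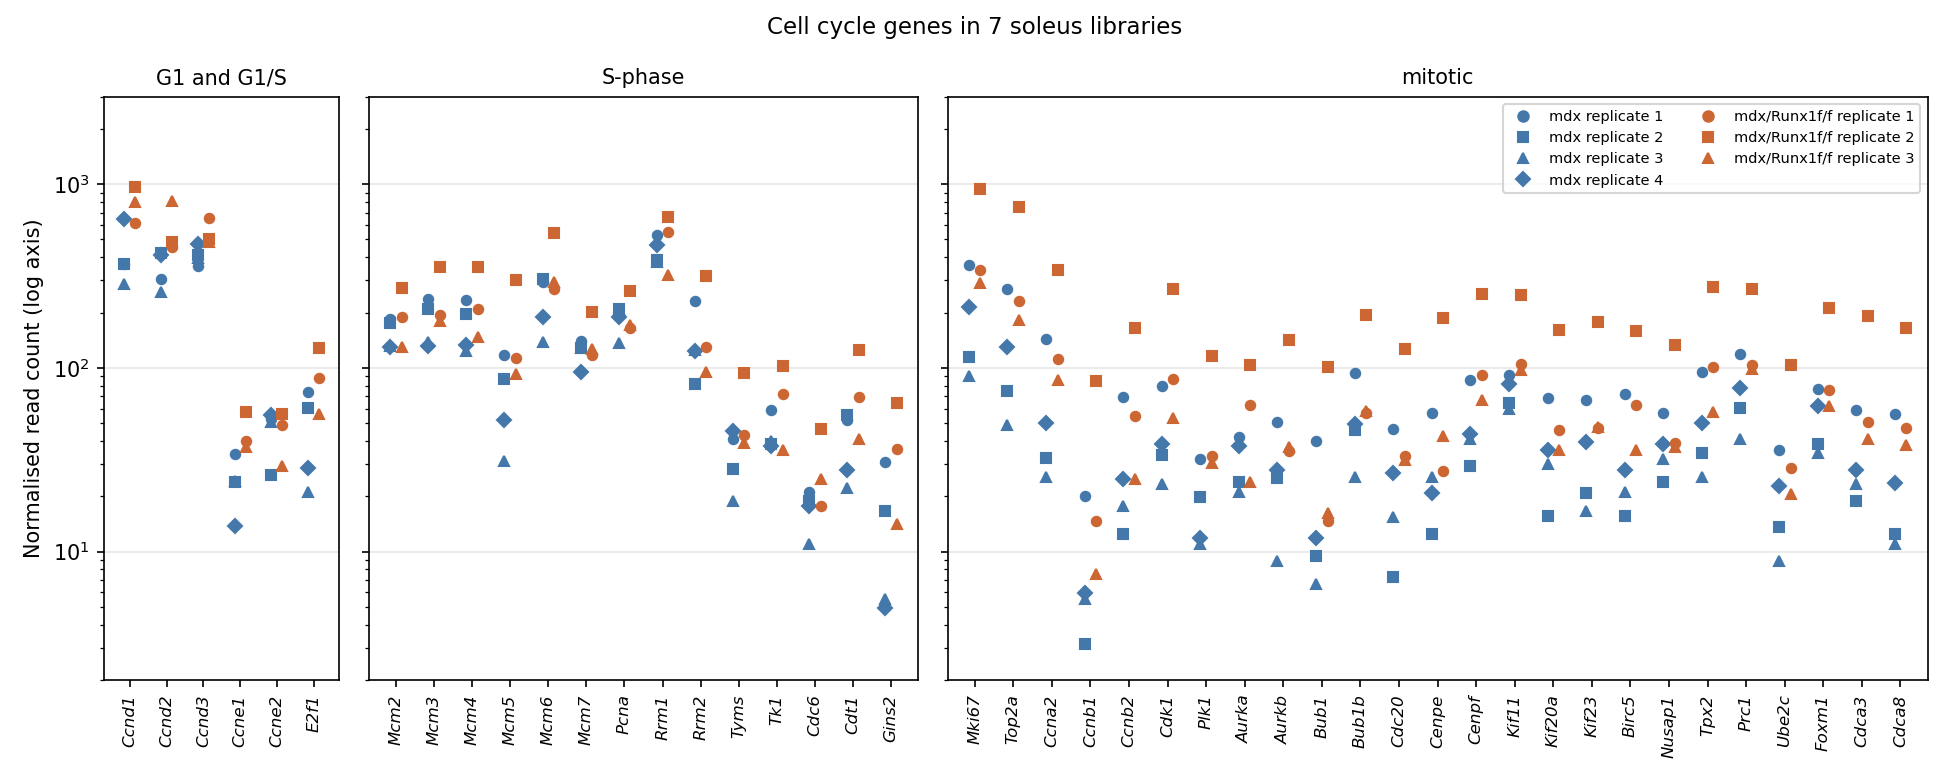
Normalised read count (log axis) of each of the 45 genes in each of the 7 libraries, blue for mdx and orange for mdx/Runx1f/f, with a marker shape per replicate. The orange squares of mdx/Runx1f/f replicate 2 are the highest points in 43 genes, and the blue circles of mdx replicate 1 are the highest blue points in all 25 mitotic genes.

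The S-phase and mitotic genes also differ in their promoter motifs. No sequence was used to choose the members. Control of these classes by E2F factors and MuvB was known beforehand, however, so the shares describe the classes and test nothing. RefSeq promoter windows (GRCm38.p6, 250 bases before to 50 after the start) were matched for 35 of the 45 genes: 12 of S phase, 3 of G1 and 20 of mitosis. Both strands were searched for 3 E2F motifs (TTTCCCGC, TTTGGCGC and TTCCCGCC, the first and the last of which can overlap), for the cell cycle genes homology region or CHR (TTTGAA), where MuvB binds, and for the CCAAT box (CCAAT), where NF-Y binds. The CHR letters were in the windows of 15 of 20 mitotic genes (75.0%), 1 of 12 S-phase genes (8.33%), 0 of 3 G1 genes and 20.2% of all 27025 genes with a window. At least 1 of these 3 E2F motifs was in 7 of 12 S-phase genes (58.3%) and in 3.69% of all genes. It was in 0 of the 20 mitotic and 0 of the 3 G1 genes. Other E2F sequences were not searched, so 0 here refers to these 3 motifs alone. The CCAAT box was in 18 of 20 mitotic genes, 8 of 12 S-phase genes (66.7%), 1 of 3 G1 genes (33.3%) and 41.1% of all. These are matches of letters, not sites shown to be bound.

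4 windows are shown so that both promoter types can be read beside their values. Plk1 (chr7:122159185-122159484, plus strand) and Cdk1 (chr10:69352863-69353162, minus strand) are mitotic, and Mcm5 (chr8:75109259-75109558, plus strand) and Mcm3 (chr1:20820263-20820562, minus strand) act in S phase. Each is written 5′ to 3′ on the strand of its gene, and capitals mark the motif matches on either strand.
Plk1: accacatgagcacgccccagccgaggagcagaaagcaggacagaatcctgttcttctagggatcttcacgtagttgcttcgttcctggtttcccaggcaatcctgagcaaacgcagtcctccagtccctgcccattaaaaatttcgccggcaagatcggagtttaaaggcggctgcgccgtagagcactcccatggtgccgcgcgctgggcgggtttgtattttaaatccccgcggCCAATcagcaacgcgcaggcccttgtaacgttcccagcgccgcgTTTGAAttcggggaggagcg
Cdk1: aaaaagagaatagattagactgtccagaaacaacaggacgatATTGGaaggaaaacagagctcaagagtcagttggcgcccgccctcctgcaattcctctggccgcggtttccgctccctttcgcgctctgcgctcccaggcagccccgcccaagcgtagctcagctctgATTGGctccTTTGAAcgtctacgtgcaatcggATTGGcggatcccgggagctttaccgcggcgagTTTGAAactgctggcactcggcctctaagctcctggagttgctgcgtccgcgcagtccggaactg
Mcm5: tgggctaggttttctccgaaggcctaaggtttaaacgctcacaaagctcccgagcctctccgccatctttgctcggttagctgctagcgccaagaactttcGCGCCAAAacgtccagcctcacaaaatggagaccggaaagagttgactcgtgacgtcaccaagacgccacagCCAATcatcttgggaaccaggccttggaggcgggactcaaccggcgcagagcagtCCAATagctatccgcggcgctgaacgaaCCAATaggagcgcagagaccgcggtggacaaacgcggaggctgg
Mcm3: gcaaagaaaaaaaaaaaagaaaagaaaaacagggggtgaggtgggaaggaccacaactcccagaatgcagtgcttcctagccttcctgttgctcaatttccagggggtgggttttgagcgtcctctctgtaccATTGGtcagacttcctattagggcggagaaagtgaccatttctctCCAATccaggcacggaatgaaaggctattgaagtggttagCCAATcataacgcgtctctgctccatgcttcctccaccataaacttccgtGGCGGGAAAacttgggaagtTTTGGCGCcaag
The Plk1 window holds 1 CHR and 1 CCAAT box, and that of Cdk1 holds 2 CHR and 3 CCAAT boxes. Mcm5 has 1 E2F motif and 3 CCAAT boxes. Mcm3 has 3 CCAAT boxes and 1 match of each E2F motif, of which the first and the last overlap.

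**Figure D2:**
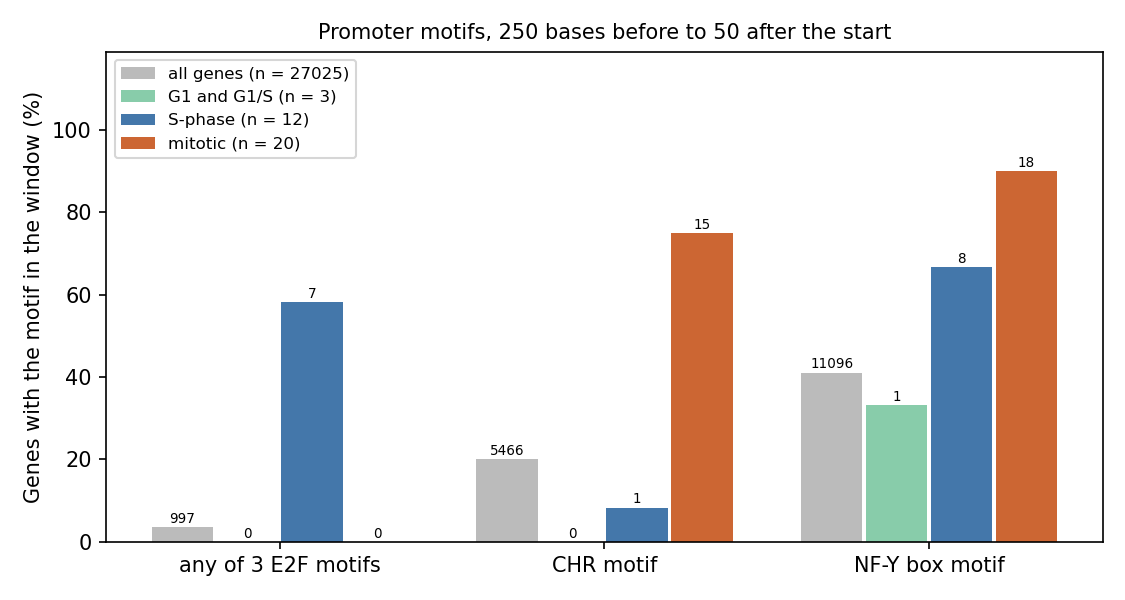
Share of genes (%) whose RefSeq promoter window holds any of the 3 E2F motifs, the CHR motif or the CCAAT box that NF-Y binds, for all genes and for each class, with the number of genes above each bar. The CHR motif is in 75.0% of mitotic genes and 8.33% of S-phase genes. Any of the 3 E2F motifs is in 58.3% of S-phase genes and no mitotic gene. Other E2F sequences were not searched.

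The smallest adjusted p of the 45 genes was that of Ccnd1. Ccnd1, cyclin D1, which links growth signals to the cell cycle, stood at 370, 368, 285 and 643 normalised counts in mdx replicates 1 to 4 and at 616, 964 and 800 in mdx/Runx1f/f replicates 1 to 3. Only mdx replicate 4 reached into the range of the other group. Its means were 416 ± 156 (SD, n = 4) and 793 ± 174 (SD, n = 3), and edgeR put the log2 fold change at 0.93 (SE 0.27, adjusted p = 0.0743). The gene was called without mdx replicate 4 (log2 fold change 1.23, edgeR adjusted p = 0.0358) and, in the authors' deposited table, at an adjusted p of 0.0213.

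Ccnd2, cyclin D2, stood at 303, 421, 258 and 411 against 455, 483 and 811, and Ccnd3, cyclin D3, the D-type cyclin of differentiating muscle, at 357, 410, 396 and 472 against 657, 500 and 485. In neither gene did the groups overlap, and neither was highest in mdx/Runx1f/f replicate 2: Ccnd2 was highest in replicate 3 and Ccnd3 in replicate 1. Their log2 fold changes were 0.75 and 0.43 (edgeR adjusted p = 0.0980 and 0.104). Without mdx/Runx1f/f replicate 3 that of Ccnd2 was 0.43, and without replicate 1 that of Ccnd3 was 0.27. A pseudogene of Ccnd3 is annotated, so reads of this gene may be shared.

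The E-type cyclins, which drive entry into S phase, differed from each other. Ccne1 stood at 33.8, 24.0, 24.3 and 13.8 normalised counts in mdx and at 40.2, 57.6 and 36.9 in mdx/Runx1f/f, with no overlap (log2 fold change 0.92, SE 0.31, edgeR adjusted p = 0.104). Ccne2 stood at 52.8, 26.1, 50.8 and 55.3 against 49.0, 56.1 and 29.3, and the groups lay over each other (log2 fold change -0.03, SE 0.33). The difference between the responses of both genes was not tested. E2f1, the activating E2F factor, had 74.0, 60.6, 21.0 and 28.6 against 88.1, 129 and 56.4 normalised counts, and mdx replicates 1 and 2 lay above mdx/Runx1f/f replicate 3. Its log2 fold change was 1.00 (edgeR adjusted p = 0.187), or 0.87 (edgeR adjusted p = 0.0463) with the animal number series as a term, a fit that called 8.88% of all genes higher and 4.15% lower.

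In all, 4 of the 45 genes had groups that did not overlap, each higher in mdx/Runx1f/f: Ccnd2, Ccnd3, Ccne1 and the mitotic kinesin gene Kif11. This was so toward higher for 13.9% of all genes and toward lower for 13.6%.

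**Figure D3:**
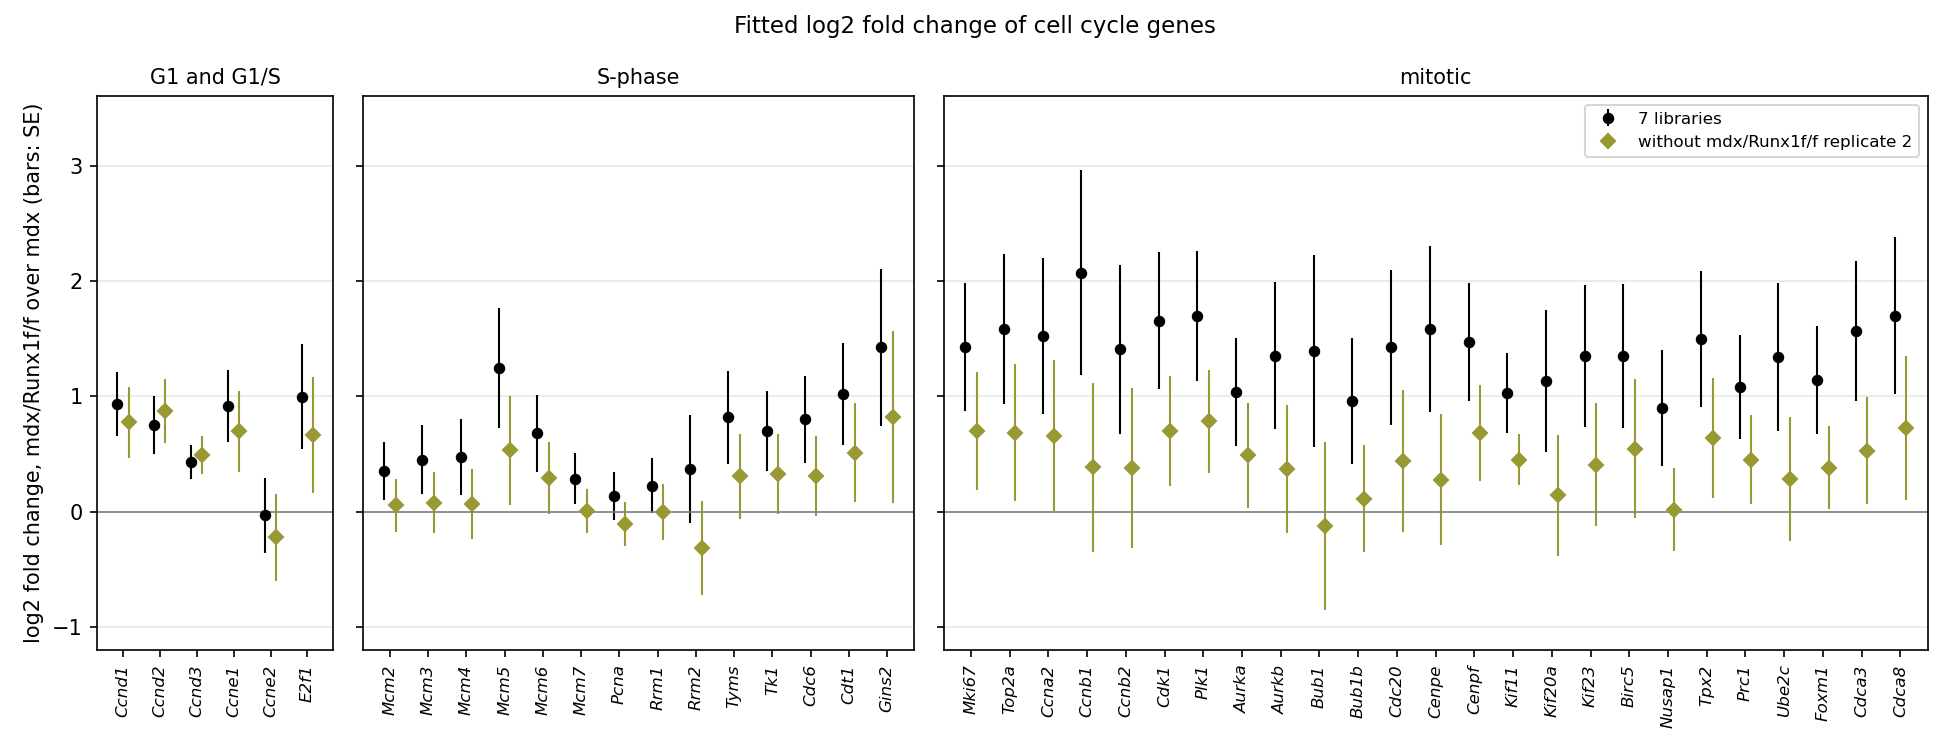
Fitted log2 fold change of mdx/Runx1f/f over mdx for the 45 genes by edgeR, with bars of 1 SE, from all 7 libraries (black circles) and without mdx/Runx1f/f replicate 2 (olive diamonds). The mitotic median was 1.41 with that library and 0.45 without it, while that of the G1 genes was 0.83 and 0.68.

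Of the helicase genes of S phase Mcm5 had the smallest p. It stood at 117, 86.7, 30.9 and 52.3 normalised counts in mdx and at 114, 301 and 92.2 in mdx/Runx1f/f (log2 fold change 1.24, SE 0.52, edgeR adjusted p = 0.160). Apart from replicate 2, the libraries labelled mdx/Runx1f/f lay within the range of the others. Mcm2, Mcm3, Mcm4, Mcm6 and Mcm7, which form the same ring around DNA, had log2 fold changes of 0.35, 0.45, 0.47, 0.68 and 0.28. Gins2, a subunit of the GINS complex that activates the ring, had few counts, at 30.6, 16.7, 5.52 and 4.94 against 36.2, 64.5 and 14.1 (log2 fold change 1.43, SE 0.68).

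The genes Cdc6 and Cdt1 encode the loaders of the helicase. Cdt1 stood at 51.8, 55.3, 22.1 and 27.6 against 69.5, 125 and 41.2 normalised counts (log2 fold change 1.02, SE 0.44, edgeR adjusted p = 0.170), and mdx/Runx1f/f replicates 1 and 2 lay above the libraries labelled mdx. Cdc6 had a log2 fold change of 0.80, with replicates 2 and 3 above them. The clamp gene Pcna, at 194, 209, 136 and 190 against 165, 262 and 171, had the smallest positive log2 fold change of the class, 0.14 (SE 0.21, edgeR adjusted p = 0.698). Without mdx/Runx1f/f replicate 2 it was -0.11. Pseudogenes of Pcna are annotated, so its reads may be shared.

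Of the enzymes for nucleotides, Tyms, thymidylate synthase, stood at 41.2, 28.2, 18.8 and 45.4 against 43.1, 93.3 and 39.0 normalised counts (log2 fold change 0.82, SE 0.40, edgeR adjusted p = 0.215). It too has an annotated pseudogene. Tk1, thymidine kinase 1, had 59.2, 38.6, 39.7 and 37.5 against 72.5, 102 and 35.8, so that mdx/Runx1f/f replicate 3 was the lowest of the 7 libraries. The subunits of ribonucleotide reductase parted from each other in their spread. Rrm1, the large subunit, stood at 529, 386, 376 and 466 against 545, 664 and 322, while Rrm2, the subunit that cells make mainly in S phase, stood at 232, 81.5, 125 and 123 against 129, 317 and 94.3. Their log2 fold changes were 0.22 and 0.37, and -0.0057 and -0.32 without mdx/Runx1f/f replicate 2.

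Animal numbers also went with the S-phase levels. In 10 of the 14 S-phase genes both of mdx replicates 1 and 2 (animals 358 and 361) lay above both of replicates 3 and 4 (animals 373 and 375), as they did in 1 of the 6 G1 genes, 1 of the 25 mitotic genes and 25.7% of all genes. The class mean in these 4 libraries was 2.78, 2.42, 1.86 and 2.10 log2 CPM. In mdx/Runx1f/f it was 2.69 and 3.56 in animals 359 and 363 and 2.32 in animal 374. Within animals 358 to 363 the median log2 fold change of the class was 0.49 and within animals 373 to 375, 2 libraries against 1, it was 0.23. In the former series 0 members and 0 genes in all were called by edgeR. In the latter Mcm6 and Ccnd2 were called higher, where 9.53% of all genes were higher and 3.08% lower, with the lone library assumed to vary like the other group. What the number series stand for is not given in the labels.

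All 25 mitotic genes were highest in mdx/Runx1f/f replicate 2 and, among the libraries labelled mdx, in replicate 1. Mki67, the marker of cycling cells known as Ki-67, stood at 365, 115, 90.5 and 214 normalised counts in mdx and at 343, 945 and 290 in mdx/Runx1f/f (log2 fold change 1.43, SE 0.56, edgeR adjusted p = 0.137). Top2a, the topoisomerase that untangles chromosomes, stood at 267, 75.2, 48.6 and 129 against 232, 751 and 183. In both genes mdx replicate 1 lay above mdx/Runx1f/f replicates 1 and 3, and only replicate 2 lay clear of the other group.

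Among the cyclin and kinase genes of mitosis, Plk1, polo-like kinase 1, stood at 31.7, 19.8, 11.04 and 11.8 against 33.3, 115 and 30.4 (log2 fold change 1.69, SE 0.57, edgeR adjusted p = 0.0979). Cdk1, the kinase that starts mitosis, had 79.2, 33.4, 23.2 and 38.5 against 87.2, 269 and 53.1, a log2 fold change of 1.66. In both, mdx/Runx1f/f replicate 1 lay slightly above mdx replicate 1. Ccna2, cyclin A2, stood at 144, 32.4, 25.4 and 50.3 against 112, 343 and 85.7. Ccnb1, cyclin B1, had the largest log2 fold change of the 45 genes, 2.07 (SE 0.89), on 20.1, 3.13, 5.52 and 5.92 against 14.7, 84.9 and 7.59. Without mdx/Runx1f/f replicate 2 that of Ccnb1 was 0.38. Ccnb2, cyclin B2, and Aurka, Aurora kinase A, had 1.41 and 1.04. Pseudogenes of Ccnb1 and Ccnb2 are annotated.

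The chromosomal passenger complex, which corrects wrong attachments to the spindle, is made of Aurkb, Birc5 and Cdca8 with a scaffold. Cdca8, or borealin, stood at 56.0, 12.5, 11.04 and 23.7 against 47.0, 165 and 38.0 normalised counts (log2 fold change 1.70, SE 0.68, edgeR adjusted p = 0.146). Aurkb, the kinase of the complex, and Birc5, or survivin, both had 1.35. In each of the 3 genes mdx replicate 1 was above mdx/Runx1f/f replicates 1 and 3.

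Of the checkpoint and kinetochore genes, Cenpf stood at 85.6, 29.2, 40.9 and 43.4 against 91.1, 253 and 67.2 normalised counts (log2 fold change 1.47, SE 0.51, edgeR adjusted p = 0.109). Cenpe, a kinesin of the kinetochore, had 1.58. Bub1b, which encodes BubR1, had 0.96. The checkpoint kinase gene Bub1 rested on replicate 2 alone, at 40.1, 9.40, 6.62 and 11.8 against 14.7, 101 and 16.3: its log2 fold change was 1.39 with that library and -0.13 without it. Of the genes around the anaphase-promoting complex, which ends mitosis by marking proteins for destruction, Cdca3 had 1.57 (SE 0.61, edgeR adjusted p = 0.135), the activator Cdc20 had 1.42 and the ubiquitin carrier Ube2c had 1.34. These 3 genes were lowest in mdx replicate 2 or 3.

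Among the spindle genes Kif11, the motor that pushes the poles apart, stood at 91.9, 64.7, 59.6 and 81.9 against 105, 250 and 97.6 normalised counts (log2 fold change 1.03, SE 0.35, edgeR adjusted p = 0.102). It was the single mitotic gene whose groups did not overlap. The other spindle and midzone genes had log2 fold changes between 0.90 in Nusap1 and 1.497 in Tpx2, with 1.13 in Kif20a, 1.35 in Kif23 and 1.08 in Prc1. Foxm1, the factor that switches on many of these genes, stood at 77.1, 38.6, 34.2 and 62.2 against 75.4, 212 and 61.8 (log2 fold change 1.14, SE 0.47, edgeR adjusted p = 0.154).

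Counted over the class, mdx/Runx1f/f replicate 1 lay within the range of the libraries labelled mdx in 19 of the 25 mitotic genes, replicate 3 in 24 and replicate 2 in 0. In all 14 S-phase, 6 G1 and 25 mitotic genes replicate 2 was above every library labelled mdx. The shares of all genes placed in these ways were not counted. Summed over the mitotic genes the normalised counts were 2191, 764, 668 and 1180 in mdx replicates 1 to 4 and 1904, 5877 and 1523 in mdx/Runx1f/f replicates 1 to 3. The S-phase sums were 2368, 1931, 1424 and 1643 against 2168, 3698 and 1712, so that the range across libraries was wider in the mitotic genes.

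The 6 genes that DESeq2 called were Ccnd1, Ccnd2, Cdk1, Plk1, Cenpf and Kif11 (DESeq2 adjusted p between 0.0163 and 0.0451). The 7 of the authors' deposited table were these and Ccne1, at adjusted p-values between 0.0213 and 0.0490. No S-phase gene was among them.

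Per kilobase of exon the classes stood at different levels. In the libraries labelled mdx the most abundant of the 45 genes were Ccnd3, at 167 ± 19.5 normalised counts per kb (SD, n = 4), Pcna at 120 ± 21.1 (SD, n = 4) and Ccnd1 at 111 ± 41.7 (SD, n = 4). Rrm1 followed at 110 ± 18.0 (SD, n = 4), and the 3 genes after Ccnd3 did not differ beyond their spread. The median was 43.7 per kb in S-phase genes (3.59 in Cdc6 to 120 in Pcna), 33.2 in G1 genes and 11.8 in mitotic genes (3.48 in Ccnb1 to 24.9 in Top2a). The exon lengths come from a later annotation than the counts, so these levels are approximate.

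Other genes of the same pathway were read from lists. Of 41 tested further replication genes 0 were higher and 1 lower by edgeR (median log2 fold change 0.18). The lower gene was Rpa1, the large subunit of the protein that coats single-stranded DNA, at 1353, 1296, 1300 and 1225 normalised counts in mdx and 935, 962 and 886 in mdx/Runx1f/f (log2 fold change -0.47, SE 0.08, edgeR adjusted p = 0.0187). Its groups lay well apart, but edgeR's adjusted p was 0.0564 when mdx replicate 3 was left out, 0.0586 when mdx/Runx1f/f replicate 2 was, 0.0558 when title numbers formed a block and 0.0777 when library totals alone set the scale. The subunits Rpa2 and Rpa3 had -0.30 and -0.50, and the clamp loader gene Rfc5 had 0.78, and none of these 3 was called.

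Of 44 tested further mitotic genes edgeR and limma-voom called 0 (median 1.23). An unadjusted p below 0.05 was found toward higher in 17 and toward lower in 1, against 17.1% and 12.4% of all genes. DESeq2 called 7 higher and 1 lower, against 10.7% and 6.33% of its genes. Nearest to the threshold were the phosphatase gene Cdc25b (1.09, edgeR adjusted p = 0.0781), the condensin gene Smc2 (1.10), Cks1b (1.05) and Ckap2 (1.39). Of the 48 genes counted from that list, 44 were highest in mdx/Runx1f/f replicate 2, as were 21.9% of all genes. Of 14 further cyclin and kinase genes 0 were called by edgeR, DESeq2 or limma-voom, with 0 and 2 at an unadjusted p below 0.05 toward higher and lower (median 0.18). Cdk4 and Cdk6, the partners of the D-type cyclins, had 0.23 and 0.44, and Ccnh and Mnat1, which activate the kinases, had -0.25 and -0.29.

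Of 18 genes of the retinoblastoma, E2F and MuvB families edgeR and limma-voom called 0, 3 and 1 had an unadjusted p below 0.05 toward higher and lower, and DESeq2 called 1 and 1 (median 0.06). The pocket protein genes Rbl2 and Rb1 had log2 fold changes of -0.34 and 0.32, and the repressive E2F genes E2f8 and E2f7 had 0.99 and 0.75. Of 7 tested inhibitors of the cyclin-dependent kinases 2 rose and 0 fell by edgeR (median 0.76). Cdkn2a, which encodes p16 and Arf, rose, at 7.40, 6.27, 6.62 and 2.96 against 93.0, 26.5 and 36.9 normalised counts (log2 fold change 3.15, edgeR adjusted p = 0.0196). Cdkn2c, an inhibitor of the kinases that bind D-type cyclins, rose too, at 119.4, 92.9, 107 and 89.8 against 149, 192 and 178 (log2 fold change 0.76, edgeR adjusted p = 0.0314). In both genes the groups lay apart. Without mdx replicates 2 and 3 in turn the adjusted p of Cdkn2a was 0.0507 and 0.0590, and that of Cdkn2c stayed below 0.05 only for mdx replicate 1 and mdx/Runx1f/f replicate 1 left out, and reached 0.0612 to 0.104 for the others. Cdkn1a and Cdkn1b had 0.84 and -0.20 and were not called by edgeR or limma-voom. DESeq2 called 3 of the inhibitors higher and 0 lower, among them Cdkn1a (DESeq2 adjusted p = 0.0478). Of the histone list 2 genes were tested and 0 called by any of the 3 tools or at an unadjusted p below 0.05 (median 0.20).

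Markers of the cells in whole muscle moved with part of these levels. Summed over 19 macrophage markers the normalised counts were 15915, 9469, 4077 and 5012 in mdx replicates 1 to 4 and 21966, 42502 and 16183 in mdx/Runx1f/f replicates 1 to 3. The library with the highest mitotic sum in each group thus also had the highest macrophage sum. Of all 7 libraries mdx/Runx1f/f replicate 2 was the highest in 18 of the 19 markers and in 21.9% of all genes. Of these markers 8 rose and 0 fell (median 1.69), among them the fractalkine receptor gene Cx3cr1 (1.54) and the integrin gene Itgax (2.41), and none was at 0 in all libraries. The orders differed in part: mdx replicate 1 was below mdx/Runx1f/f replicates 1 and 3 in the macrophage sum and above them in the mitotic sum. Likewise mdx replicate 2 was above mdx replicate 4 in the macrophage sum and below it in the mitotic sum (764 and 1180). Within each group the S-phase sums ranked the libraries as the macrophage sums did. The S-phase sums were 2368, 1931, 1424 and 1643 in mdx replicates 1 to 4 and 2168, 3698 and 1712 in mdx/Runx1f/f replicates 1 to 3. Across the groups, mdx replicate 1 was above mdx/Runx1f/f replicates 1 and 3 in the S-phase sum too.

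Satellite cell and myoblast markers did not follow this order. The sum of their 12 genes was 9977, 13340, 15914 and 16234 against 22756, 11199 and 22609. In this sum mdx replicate 1 and mdx/Runx1f/f replicate 2 were the lowest of their groups. Most of the sum comes from Myh3, Myh8 and Itga7, which are abundant and not particular to satellite cells. They stood at 2774, 1464 and 2496 in mdx/Runx1f/f replicate 2 and at 10910, 4142 and 3154 in replicate 3. The mean over the 12 genes, which weighs each gene alike, was also lowest in these libraries, at 4.65 and 4.97 log2 CPM. Gene by gene this was less clear: mdx/Runx1f/f replicate 2 was the lowest of its group in 6 of the 12 genes and replicate 3 in 5. Among the libraries labelled mdx, replicate 1 was the lowest in 5 genes and replicate 4 in 4. Of the 12 genes edgeR and limma-voom called 0, 5 and 1 had an unadjusted p below 0.05 toward higher and lower, and DESeq2 called 2 and 1 (median 0.40). Vcam1 and Myog, the factor of differentiating myoblasts, had 0.92 and 1.17 (edgeR adjusted p = 0.0600 and 0.0798). Pax7, which marks satellite cells and was named after its values were seen, stood at 86.6 to 156 and at 114 to 164 normalised counts.

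The sums of 12 markers of fibro-adipogenic progenitors were 49634 to 70400 in mdx and 141756 to 162929 in mdx/Runx1f/f. Of these 8 rose and 0 fell (median 1.12), among them Dpt (1.27) and Dlk1 (4.69). Of 8 endothelial markers 1 rose, Vwf (0.89), with Tie1 at -0.26 (median -0.08), and their sums were 10860 to 19517 and 12399 to 17076. Of 10 T and NK cell markers 2 were tested, Cd4 (2.42) and Klrk1 (1.53), and both rose by edgeR, on sums of 15.8 to 37.5 and 66.7 to 130 over the list. The call of Klrk1 was lost with limma-voom (adjusted p = 0.0563) and without any single library (edgeR adjusted p from 0.0614 to 0.103). That of Vwf was lost without mdx replicate 2, 3 or 4 or mdx/Runx1f/f replicate 2 (0.0552 to 0.0663 by edgeR), as was that of Itgax (0.0508 to 0.0661). Of the 10 soleus fibre markers edgeR and limma-voom called 0, 5 had an unadjusted p below 0.05 toward lower, and DESeq2 called 3 lower (median -1.003). Their sums were 853294 to 1204450 and 396760 to 774139, with Myl3 at -1.36 and Myh7 at -1.15. In no list of cell markers was a gene at 0 in all libraries. The part of these cells in the levels of the cell cycle genes was not tested.

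**Figure D4:**
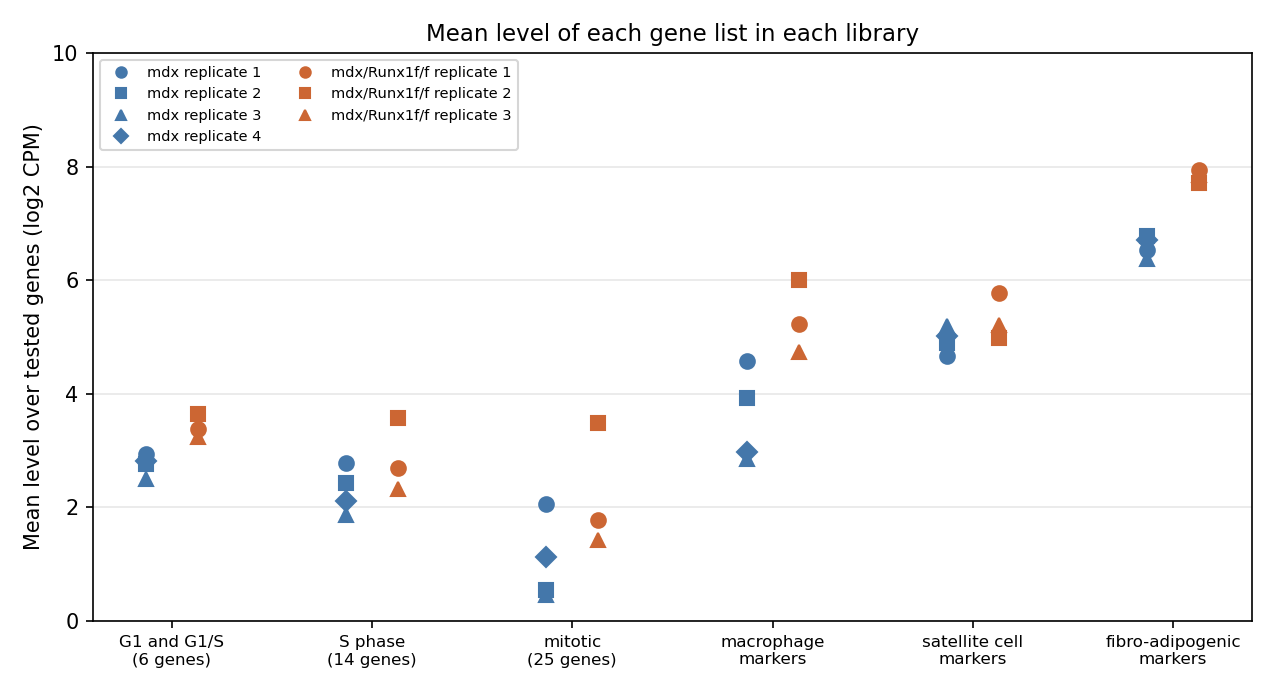
Mean level (log2 CPM) over the tested genes of each class and of 3 marker lists in each library, blue for mdx and orange for mdx/Runx1f/f, with a marker shape per replicate. In the mitotic genes mdx/Runx1f/f replicate 2 stands at 3.48 and mdx replicate 1 at 2.05, above the other libraries, and both are also the highest of their group in macrophage markers (5.99 and 4.57) but not in satellite cell markers.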

How the data were processed

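Whole soleus RNA was sequenced from 7 mice, of which 4 were labelled mdx and 3 mdx/Runx1f/f. The authors deposited raw read counts per gene symbol, made with TopHat2 2.0.10 and HTSeq on mm9, per the submitters' processing notes. Further columns hold each library's counts divided by 1 size factor, a signal on the count scale that the authors normalised. Their table also gives a log2 fold change with its standard error, a p-value and an adjusted p-value, under DESeq2 column names per the file headers (DESeq2 1.6.3 per the submitters' processing notes). The annotation, strand setting and handling of multiply matching reads were not given in the sources used here.

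The titles gave each group and replicate number, and columns were joined to samples by the animal number. All 45 genes were found by symbol among 29869 and all passed edgeR's filterByExpr filter, as did 14033 genes in all. The counts went into edgeR 4.0.16 under R 4.3.3 (quasi-likelihood test, TMM factors, group as the only term), adjusted by Benjamini-Hochberg over 14033 genes, and called at an adjusted p below 0.05. The step was tested on simulated data with the same dispersion for every gene and no library set apart. It therefore does not cover classes in which 1 library stands apart. DESeq2 1.42.0, limma-voom 3.58.1, other scalings and filters, the title number as a block, the animal number series, and each library left out were alternatives. The SE is the fold change over the root of F. Log2 CPM, counts scaled by library size, used a prior count of 2. Promoter windows came from RefSeq (GRCm38.p6, not mm9) and exon lengths from GENCODE M21. The members and gene lists were chosen with earlier results of these data known. Named outside the members are the genes with the smallest p of each list, 4 of a pathway list and 2 of a marker list, with called Cdk inhibitors. Pax7, Myh3, Myh8 and Itga7 were named after their values were seen. Every pair of libraries differed by more than sampling noise (lowest chi-square 15.8 per degree of freedom). P-values measure the spread between these animals.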

Additional observations from a re-analysis of the deposited data

Results flagged for a closer look

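In 5 of the 77 genes checked 1 of the 4 libraries labelled mdx stood far from the other 3, by the gap to its nearest neighbour over the range (Dixon's test at the 95% level). Chance flags about 1 in 20 such groups. Tk1 stood at 59.2, Ccnb1 at 20.1 and Bub1 at 40.1 normalised read counts in mdx replicate 1, each above the other libraries of the group. Ccne2 stood at 26.1 in mdx replicate 2, below the others, and the kinase gene Cdk6 at 52.2 in the same library, above the others. The gap took 0.897, 0.835, 0.844, 0.846 and 0.871 of the range in Tk1, Ccnb1, Bub1, Ccne2 and Cdk6. Groups of 3 were not checked.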

How the results depend on the processing

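The count of 0 called members by edgeR held for RLE factors, library totals, both filters and each library left out but mdx replicate 4 (range 0 to 1, with 0 lower in all). It was 6 with DESeq2 (4 mitotic), 1 with the animal number series as a term, and 2 (1 of S phase) within animals 373 to 375; the cause was not tested. With the title number as a replicate block, edgeR called 240 genes higher and 80 lower in all and 1 member, Ccnd1 (edgeR adjusted p = 0.0467). Same-numbered libraries deviated with correlations of -0.01, 0.24 and 0.28, so the numbers were not read as pairs. Not every library correlated best with its own number: mdx replicate 1 did so with mdx/Runx1f/f replicate 2 (0.51).

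Over all genes, 715 were higher and 260 lower. DESeq2 gave 1499 and 887, the number series 1246 and 582, animals 358 to 363 alone 0 and 0, animals 373 to 375 alone 1361 and 440, and neither mdx replicate 1 nor mdx/Runx1f/f replicate 2, added after seeing the data, 106 and 3. Library totals gave 131 lower and moved the median of all genes to 0.10. Leaving out 1 library gave 173 to 641 higher and 17 to 209 lower, and mitotic medians of 0.45 (without mdx/Runx1f/f replicate 2) to 1.93 (without mdx replicate 1). Runx1 had a log2 fold change of 1.77 (adjusted p = 0.131 by edgeR) within animals 358 to 363.

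Grouped by the description field, which sets animals 373 to 375 against 358 to 363, 5 genes were higher and 3 lower and no member was called. There the class medians were -0.73 in S phase, -0.064 in G1 and -1.37 in mitosis, and Runx1 had -0.80. This is another contrast, so single members are given as counts: 14, 5 and 25 of the S-phase, G1 and mitotic genes were lower in animals 373 to 375.

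Signs turned in few members. Ccne2 had 0.0018 with limma-voom, 0.092 with library totals, 0.079 with the block and 0.43 within animals 358 to 363, and -0.23 to 0.18 as libraries were left out. Within animals 373 to 375 Rrm1 had -0.38, Rrm2 -0.39, Tk1 -0.10 and Aurka -0.30. As libraries were left out Pcna ranged from -0.11 to 0.25, Rrm1 from -0.0057 to 0.46, Rrm2 from -0.32 to 0.72 and Bub1 from -0.13 to 2.24. Without both mdx replicate 1 and mdx/Runx1f/f replicate 2, Pcna had -0.072. Few counts limit Ccnb1 and Gins2, at under 10 normalised counts in 3 and 2 of the libraries labelled mdx. Bub1 was likewise at 9.40 and 6.62 in mdx replicates 2 and 3. Aurkb and Ube2c were each at 8.83 in mdx replicate 3, and Cdc20 was at 7.31 in mdx replicate 2. Ccnb1 was also at 7.59 in mdx/Runx1f/f replicate 3.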
